A study of Mus musculus with 15 samples.

Results

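Matricellular and elastic fibre genes are described here in mouse skin, in animals labelled Trpv3 knockout (KO) or wild type (WT), with and without MC903. The 10 genes Tnc, Postn, Fn1, Thbs1, Thbs2, Sparc, Spp1, Eln, Fbn1 and Lox were chosen by name, and all 10 were present among the 54532 genes of the table and passed the filter on low values. MC903, also named calcipotriol, is an analogue of vitamin D that inflames mouse skin and serves as a model of atopic dermatitis. The 4 groups of 3 skin libraries each were skin labelled KO given MC903 for 7 days, skin labelled WT given MC903 for 7 days, untreated skin labelled KO and untreated skin labelled WT. The series text speaks of conditional knockouts of TRPV3, a warmth-sensing cation channel found in keratinocytes, but the labels of these skin samples do not name the cells that lose the gene, a Cre driver, the strain or the age. The untreated groups carry no vehicle in the labels, so the effect of MC903 and that of its application cannot be told apart.

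Matricellular proteins are secreted into the extracellular matrix, where they act on cells through integrins and other receptors more than as structural fibres. Tenascin-C (Tnc), periostin (Postn), thrombospondins 1 and 2 (Thbs1, Thbs2), SPARC (Sparc) and osteopontin (Spp1) belong to this class, and several of them are sparse in resting adult skin and abundant in wounds and inflamed dermis. Fibronectin (Fn1) is the adhesive matrix protein on which other fibres assemble. Elastic fibres consist of a core of elastin (Eln) on a scaffold of fibrillin-1 microfibrils (Fbn1), and lysyl oxidase (Lox) cross-links elastin and collagen. In skin most of these genes are transcribed by dermal fibroblasts, with Thbs1 protein also carried by platelets and Spp1 also made in macrophages.

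Upstream sequences are given for Tnc and Spp1, which rose with MC903 in both genotypes, and for Postn, which fell in both. Each is the 250 bases before the RefSeq start on GRCm38.p6, written 5′ to 3′ on the gene's strand, with matches to the searched motifs in capitals.
Tnc (chr4:64047016-64047265, minus strand): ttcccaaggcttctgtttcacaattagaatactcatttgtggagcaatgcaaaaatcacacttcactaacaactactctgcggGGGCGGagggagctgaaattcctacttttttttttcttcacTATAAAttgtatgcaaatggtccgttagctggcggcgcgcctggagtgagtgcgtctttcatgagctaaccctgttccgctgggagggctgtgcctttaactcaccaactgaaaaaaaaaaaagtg
Spp1 (chr5:104434861-104435110, plus strand): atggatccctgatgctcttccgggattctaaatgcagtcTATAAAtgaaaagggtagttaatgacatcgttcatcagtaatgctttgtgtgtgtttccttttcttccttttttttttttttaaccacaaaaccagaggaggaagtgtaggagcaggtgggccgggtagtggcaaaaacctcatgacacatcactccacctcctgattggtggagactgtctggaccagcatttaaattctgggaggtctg
Postn (chr3:54360857-54361106, plus strand): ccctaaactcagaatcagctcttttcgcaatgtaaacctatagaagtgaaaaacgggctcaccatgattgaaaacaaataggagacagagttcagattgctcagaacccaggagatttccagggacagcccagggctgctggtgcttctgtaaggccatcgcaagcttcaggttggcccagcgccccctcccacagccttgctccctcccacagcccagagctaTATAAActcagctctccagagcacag
The letters TATAAA began 126 bases before the start in Tnc, 211 bases before it in Spp1 and 26 bases before it in Postn, and a GC box (GGGCGG) began 167 bases before the start of Tnc. Searched on both strands of windows that ran 250 bases before to 50 after the start, TATAAA was found in 13.6% and GGGCGG in 35.7% of all 32851 RefSeq promoters. The AP-1 letters TGANTCA, found in 7.81% of all promoters, and the TEAD letters GGAATG, found in 14.7%, had no match in the windows of these 3 genes. Of the other members with a promoter window, Thbs2 held TATAAA on the opposite strand and Fbn1 held GGGCGG without TATAAA. Sparc, which also fell in both genotypes, had no match to any searched motif. These matches describe letters and not binding sites.

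The libraries held 16869716 to 18485698 gene-assigned reads, and the reads behind a member in 1 library ranged from 176 for Spp1 to 197633 for Sparc. Levels are FPKM, fragments per kilobase of gene and per unit of library size, as the authors scaled them. Fold changes with a ± are differences of log2(FPKM + 0.5) and the standard error (SE) of the fit, a scale that understates changes of low genes, and folds in words are ratios of group means of FPKM. A gene was called when its limma adjusted p was under 0.05 over the 17646 genes tested. In the alternative fit with library weights, untreated WT replicates 1, 2 and 3 had weights of 4.614, 0.4554 and 0.2182. For that group the weighted values below therefore rest mostly on replicate 1. Whether a group's 3 libraries stem from 3 animals is not in the labels, and the p-values cover only the spread among these libraries, part of which may be technical. In untreated skin Trpv3 had 3.17, 3.64 and 2.62 FPKM in libraries labelled KO, against 2.06, 2.71 and 1.13 FPKM in libraries labelled WT, so its level did not mark the genotype label there. After MC903 it had 6.82, 6.78 and 4.73 FPKM in libraries labelled KO, against 16.1, 16.97 and 18.996 FPKM in libraries labelled WT. Whether the deleted stretch is covered by these reads is not known, so all genotype differences below are differences between labels.

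After MC903, Tnc and Spp1 rose and Postn, Sparc and Eln fell in both genotypes, while Fn1, Fbn1 and Lox passed as lower in skin labelled WT and Thbs2 in skin labelled KO. In skin labelled KO 2 members rose (Tnc and Spp1) and 4 fell (Postn, Thbs2, Sparc and Eln), where 47.9% of all genes passed the test, 25% as higher and 23% as lower. In skin labelled WT 2 members rose (Tnc and Spp1) and 6 fell (Postn, Fn1, Sparc, Eln, Fbn1 and Lox), where 63% of all genes passed, 32.6% as higher and 30.3% as lower. The median log2 fold change of the 10 members was -0.38 in skin labelled KO and -1.20 in skin labelled WT, against medians of -0.00 and 0.02 over all genes tested. In a bulk library, fewer cells of a type and less RNA per cell cannot be told apart.

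**Figure D1:**
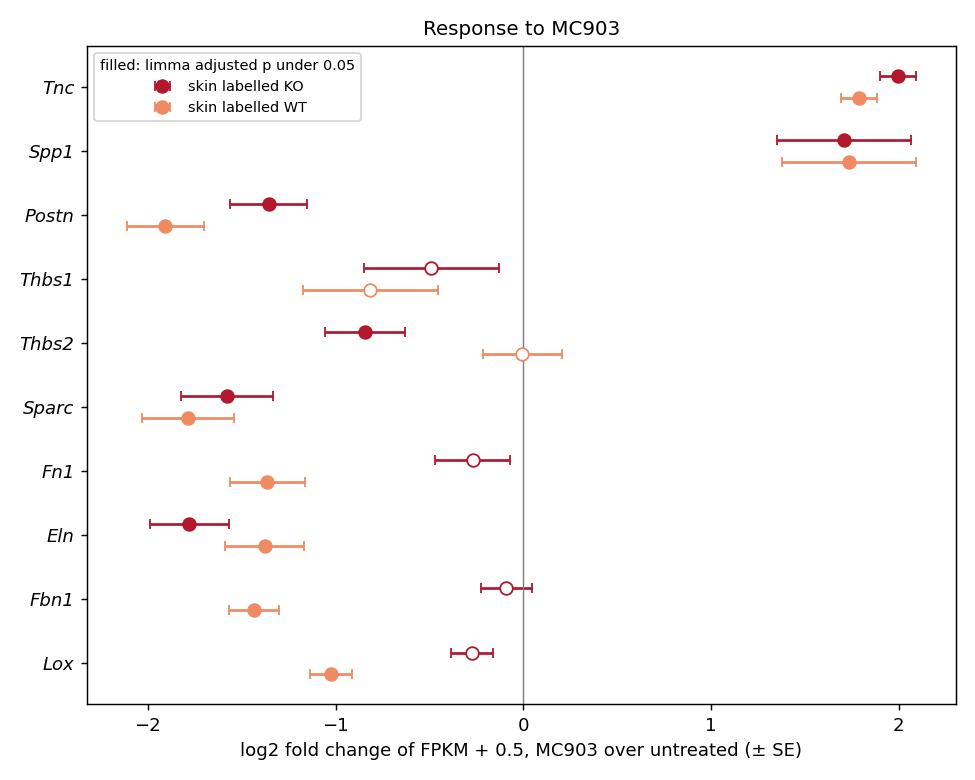
Points give the log2 fold change of FPKM + 0.5 of MC903 over untreated skin for each gene, with bars of 1 SE, in skin labelled KO (dark red, upper) and skin labelled WT (orange, lower), 3 libraries a group. Filled points passed a limma adjusted p of 0.05; Tnc and Spp1 lie to the right of 0 in both genotypes, and Fn1, Fbn1 and Lox are filled in skin labelled WT alone.

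Members were higher in skin labelled KO than in skin labelled WT, with and without MC903. In MC903 skin 8 members were higher (all but Thbs2 and Spp1) and 0 were lower, where 52.1% of all genes passed, 25.9% as higher and 26.1% as lower. In untreated skin 8 members were higher (all but Thbs1 and Spp1) and 0 were lower, where 11.7% of all genes passed, 7.15% as higher and 4.55% as lower. The median log2 difference of the 10 members was 1.49 in MC903 skin and 1.04 in untreated skin, against -0.03 and 0.01 over all genes. The 2 genotype comparisons share no libraries, but their p-values share 1 variance estimate per gene from all 12 skin libraries.

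**Figure D2:**
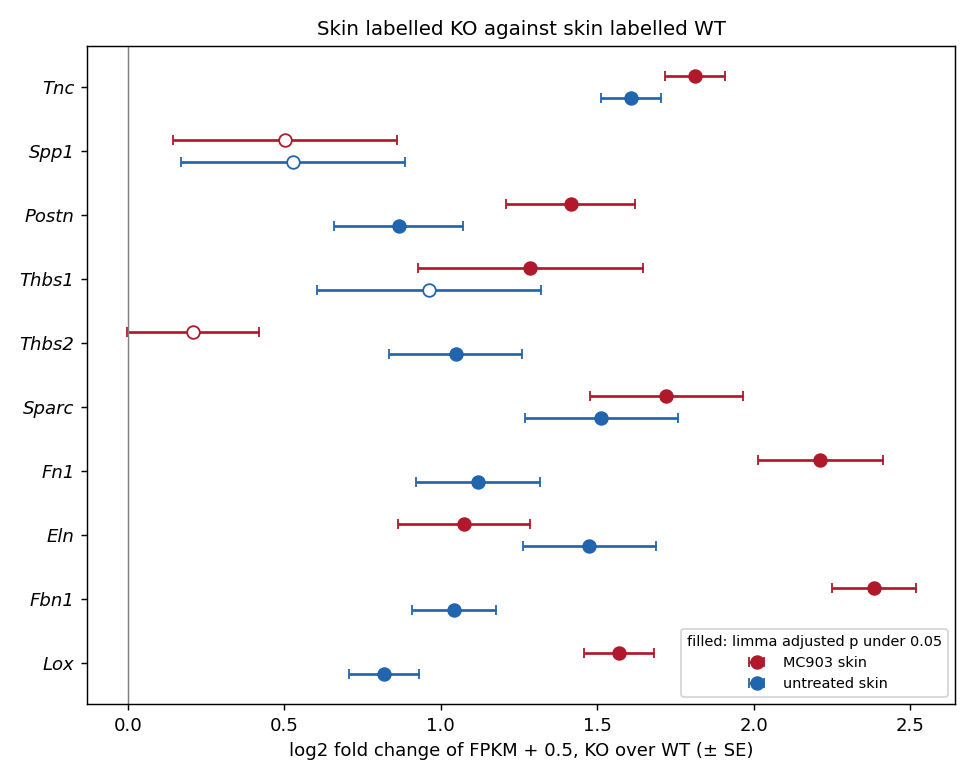
Points give the log2 fold change of FPKM + 0.5 of skin labelled KO over skin labelled WT, with bars of 1 SE, in MC903 skin (red, upper) and untreated skin (blue, lower), 3 libraries a group. Filled points passed a limma adjusted p of 0.05, and all points lie to the right of 0.

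Tnc (chr4:63959785-64047015 on mm10, minus strand), a large hexameric glycoprotein of wound matrix, was the one member whose mean differed by over 3-fold in both MC903 comparisons and both label comparisons. It had 78.7, 103 and 96.9 FPKM in MC903 skin labelled KO, against 25.5, 25.7 and 26.4 FPKM in MC903 skin labelled WT. Without treatment Tnc had 23.0, 21.3 and 24.2 FPKM in skin labelled KO, against 7.09, 7.09 and 7.23 FPKM in skin labelled WT. MC903 skin labelled WT thus stood just above untreated skin labelled KO, without overlap. MC903 raised Tnc 4.07-fold in skin labelled KO (log2 1.99 ± 0.10, limma adjusted p = 1.09e-07) and 3.63-fold in skin labelled WT (1.79 ± 0.10, limma adjusted p = 8.18e-08). The difference between labels was 3.58-fold in MC903 skin (1.81 ± 0.10, limma adjusted p = 1.08e-06) and 3.20-fold in untreated skin (1.61 ± 0.10, limma adjusted p = 5.63e-05). The MC903 response differed by 0.20 ± 0.13 between the labels (limma adjusted p = 0.250), and this difference passed when values were rescaled to TPM (0.46, limma adjusted p = 0.018) or without MC903 KO replicate 1 (0.32, limma adjusted p = 0.042). Without MC903 KO replicate 2 it was 0.13 (limma adjusted p = 0.49).

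Spp1 (chr5:104435118-104441050, plus strand), a phosphoprotein that binds integrins and CD44, was the other member that rose with MC903, and its differences between labels did not pass. It had 29.4, 37.6 and 47.6 FPKM in MC903 skin labelled KO, against 19.0, 31.8 and 30.2 FPKM in MC903 skin labelled WT. Without treatment Spp1 had 9.41, 16.9 and 8.63 FPKM in skin labelled KO, against 5.37, 13.7 and 5.81 FPKM in skin labelled WT. All MC903 libraries exceeded all untreated libraries, and the labels overlapped within each treatment. The rise was 3.28-fold in skin labelled KO (log2 1.71 ± 0.36, limma adjusted p = 0.00244) and 3.26-fold in skin labelled WT (1.73 ± 0.36, limma adjusted p = 0.00135). The difference between labels was 0.50 ± 0.36 in MC903 skin (limma adjusted p = 0.262) and 0.53 ± 0.36 in untreated skin (limma adjusted p = 0.369), and the response differed by -0.03 ± 0.51 (limma adjusted p = 0.974). The untreated label difference passed with library weights (0.90, limma adjusted p = 0.023), and it ranged from 0.24 without untreated KO replicate 2 to 0.93 without untreated WT replicate 2. In MC903 skin it was 0.27 without MC903 WT replicate 1 and 0.33 without MC903 KO replicate 3.

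Postn (chr3:54361109-54391037, plus strand), a fasciclin-domain protein that binds collagen and integrins, fell with MC903 in both genotypes and was higher in skin labelled KO. It had 75.7, 69.3 and 86.2 FPKM in MC903 skin labelled KO, against 28.2, 30.04 and 27.2 FPKM in MC903 skin labelled WT. Without treatment Postn had 181, 206 and 206 FPKM in skin labelled KO, against 162, 99.9 and 78.3 FPKM in skin labelled WT. The untreated WT libraries spread widely, while no pair of groups compared overlapped. The fall was 2.57-fold in skin labelled KO (log2 -1.36 ± 0.21, limma adjusted p = 0.000322) and 3.98-fold in skin labelled WT (-1.91 ± 0.21, limma adjusted p = 1.24e-05). Skin labelled KO exceeded skin labelled WT 2.71-fold after MC903 (1.42 ± 0.21, limma adjusted p = 0.00021) and 1.75-fold untreated (0.87 ± 0.21, limma adjusted p = 0.0229). The untreated call was lost in 8 of 25 alternatives, among them leaving out each untreated KO library in turn (0.83 to 0.93) or untreated WT replicate 2 (0.81, limma adjusted p = 0.071), and with library weights it was 0.38 (limma adjusted p = 0.053). The MC903 response differed by 0.55 ± 0.29 between labels (limma adjusted p = 0.156). It was 0.26 without untreated WT replicate 1 (limma adjusted p = 0.27) and 0.78 without untreated WT replicate 3 (limma adjusted p = 0.020), and it also passed in TPM (0.84, limma adjusted p = 0.049) and with library weights (0.99, limma adjusted p = 0.0040).

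Sparc (chr11:55394500-55423183, minus strand), a calcium-binding protein that chaperones collagen, was the most abundant member per length in every library and made up most of the members' summed FPKM. It had 895, 743 and 948 FPKM in MC903 skin labelled KO, against 244, 281 and 255 FPKM in MC903 skin labelled WT. Without treatment Sparc had 2487, 2407 and 2801 FPKM in skin labelled KO, against 962, 573 and 1309 FPKM in skin labelled WT. MC903 skin labelled KO therefore lay within the range of untreated skin labelled WT. MC903 lowered Sparc 2.97-fold in skin labelled KO (log2 -1.58 ± 0.24, limma adjusted p = 0.00037) and 3.64-fold in skin labelled WT (-1.79 ± 0.24, limma adjusted p = 7.25e-05). Skin labelled KO was higher 3.31-fold after MC903 (1.72 ± 0.24, limma adjusted p = 0.000177) and 2.71-fold untreated (1.51 ± 0.24, limma adjusted p = 0.00488). The untreated call was lost in a fit of those 2 groups alone (limma adjusted p = 0.063). Sparc's share of the members' summed FPKM averaged 57.2% in MC903 skin labelled KO, 53.1% in MC903 skin labelled WT, 72.6% in untreated skin labelled KO and 65.6% in untreated skin labelled WT. The share of Tnc averaged 6.22% in MC903 skin labelled KO, 5.30% in MC903 skin labelled WT, 0.647% in untreated skin labelled KO and 0.539% in untreated skin labelled WT.

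Thrombospondins 1 and 2, trimeric glycoproteins that bind CD36 and CD47, did not pass in the same comparisons. Thbs1 (chr2:118111876-118127133, plus strand), which also releases latent TGF-beta, had 102, 101 and 102 FPKM in MC903 skin labelled KO, against 36.3, 44.6 and 44.0 FPKM in MC903 skin labelled WT. Without treatment Thbs1 had 153, 126 and 152 FPKM in skin labelled KO, against 37.8, 69.0 and 150 FPKM in skin labelled WT. The untreated WT libraries covered nearly the whole range of the other groups. Thbs1 was 2.45-fold higher in MC903 skin labelled KO than labelled WT (log2 1.29 ± 0.36, limma adjusted p = 0.0111), the one called comparison of this gene. The untreated difference of 0.96 ± 0.36 did not pass (limma adjusted p = 0.108). It was 0.49 without untreated WT replicate 1 (limma adjusted p = 0.27) and 1.48 without untreated WT replicate 3 (limma adjusted p = 0.0019), and it passed with library weights (1.75, limma adjusted p = 0.00023). Those weights lean on untreated WT replicate 1, which had the lowest Thbs1 level of its group (37.8 FPKM). The MC903 response was -0.49 ± 0.36 in skin labelled KO (limma adjusted p = 0.285) and -0.81 ± 0.36 in skin labelled WT (limma adjusted p = 0.0675). The response in skin labelled WT was -1.29 without untreated WT replicate 1 (limma adjusted p = 0.0016) and -0.30 without untreated WT replicate 3 (limma adjusted p = 0.23). It passed in 4 of 25 alternatives, and with library weights it was -0.020 (limma adjusted p = 0.95). The response in skin labelled KO passed without untreated WT replicate 3 (-0.49, limma adjusted p = 0.046) and in a fit of its 2 groups alone (-0.49, limma adjusted p = 0.0036).

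Thbs2 (chr17:14665500-14694235, minus strand), an inhibitor of angiogenesis, had 7.85, 10.98 and 14.8 FPKM in MC903 skin labelled KO, against 9.24, 9.33 and 9.47 FPKM in MC903 skin labelled WT. Without treatment Thbs2 had 18.2, 20.7 and 21.0 FPKM in skin labelled KO, against 6.88, 11.8 and 10.2 FPKM in skin labelled WT. Untreated skin labelled KO stood above the other 3 groups, which overlapped each other. Thbs2 was 1.78-fold lower after MC903 in skin labelled KO (log2 -0.84 ± 0.21, limma adjusted p = 0.00706) and 2.08-fold higher in untreated skin labelled KO than labelled WT (1.05 ± 0.21, limma adjusted p = 0.012). In skin labelled WT the MC903 change was -0.00 ± 0.21 (limma adjusted p = 0.988), and the difference between labels in MC903 skin was 0.21 ± 0.21 (limma adjusted p = 0.438). The response differed by -0.84 ± 0.30 between labels (limma adjusted p = 0.0451), a call lost in 12 of 24 alternatives, whose limma adjusted p-values spanned 0.0024 to 0.16. Of the libraries left out in turn, it passed only without MC903 KO replicate 3, untreated WT replicate 2 or untreated WT replicate 3.

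Fn1 (chr1:71585520-71653200, minus strand) fell in skin labelled WT, and in skin labelled KO its change did not pass. It had 89.4, 94.5 and 118 FPKM in MC903 skin labelled KO, against 19.1, 23.8 and 20.8 FPKM in MC903 skin labelled WT. Without treatment Fn1 had 123, 114 and 125 FPKM in skin labelled KO, against 43.8, 47.5 and 80.8 FPKM in skin labelled WT. The treatments overlapped in skin labelled KO and stood apart in skin labelled WT. MC903 changed Fn1 by log2 -0.27 ± 0.20 in skin labelled KO (limma adjusted p = 0.289) and by -1.36 ± 0.20 in skin labelled WT (limma adjusted p = 0.000115), and the difference of 1.09 ± 0.28 passed (limma adjusted p = 0.0104). The change in skin labelled KO passed with library weights (-0.32, limma adjusted p = 0.0497). Skin labelled KO had 4.74-fold more Fn1 RNA after MC903 (2.21 ± 0.20, limma adjusted p = 9.71e-06) and 2.10-fold more untreated (1.12 ± 0.20, limma adjusted p = 0.00689). The untreated call was lost in a fit of those 2 groups alone (limma adjusted p = 0.057).

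The elastic fibre members split. Eln (chr5:134702593-134747323, minus strand), the elastin precursor, fell in both genotypes, whereas Fbn1 and Lox fell in skin labelled WT and did not pass in skin labelled KO. Eln had 93.6, 72.5 and 89.6 FPKM in MC903 skin labelled KO, against 37.3, 42.6 and 40.3 FPKM in MC903 skin labelled WT. Without treatment Eln had 289, 266 and 322 FPKM in skin labelled KO, against 112, 70.7 and 145 FPKM in skin labelled WT. MC903 lowered it 3.43-fold in skin labelled KO (log2 -1.78 ± 0.21, limma adjusted p = 6.58e-05) and 2.73-fold in skin labelled WT (-1.38 ± 0.21, limma adjusted p = 0.000172), and the responses differed by -0.40 ± 0.30 (limma adjusted p = 0.310), with -0.12 without untreated WT replicate 2 and -0.64 without untreated WT replicate 3. Skin labelled KO was higher 2.13-fold after MC903 (1.07 ± 0.21, limma adjusted p = 0.00151) and 2.68-fold untreated (1.47 ± 0.21, limma adjusted p = 0.00282).

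Fbn1 (chr2:125300594-125507993, minus strand), the microfibril protein that also holds latent TGF-beta binding proteins, had 53.7, 55.9 and 57.7 FPKM in MC903 skin labelled KO, against 9.31, 11.1 and 10.5 FPKM in MC903 skin labelled WT. Without treatment Fbn1 had 61.7, 51.9 and 65.3 FPKM in skin labelled KO, against 24.9, 26.3 and 35.7 FPKM in skin labelled WT. The treated and untreated libraries labelled KO overlapped, and the 3 treated libraries labelled WT lay below all others. The MC903 change was -0.09 ± 0.13 in skin labelled KO (limma adjusted p = 0.611) and -1.43 ± 0.13 in skin labelled WT (limma adjusted p = 4.11e-06), and these differed by 1.34 ± 0.19 (limma adjusted p = 0.000412). The difference between labels was 5.42-fold after MC903 (2.38 ± 0.13, limma adjusted p = 1.33e-06), the largest of the 10 members, and 2.06-fold untreated (1.04 ± 0.13, limma adjusted p = 0.00181). In the annotation, 20.1% of the exon bases of Fbn1 overlap Gm9913 on the opposite strand, which was listed at 0.338 FPKM at most, and 18.8% of those of Spp1 overlap Gm42793, at 0.220 FPKM at most.

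Lox had 84.4, 75.1 and 78.8 FPKM in MC903 skin labelled KO, against 22.4, 29.5 and 27.9 FPKM in MC903 skin labelled WT. Without treatment Lox had 91.7, 94.3 and 103 FPKM in skin labelled KO, against 59.7, 48.7 and 55.0 FPKM in skin labelled WT. No pair of groups compared overlapped. The MC903 change was -0.28 ± 0.11 in skin labelled KO (limma adjusted p = 0.0639), which passed in 5 of 25 alternatives, among them without MC903 WT replicate 1 (limma adjusted p = 0.033), and -1.03 ± 0.11 in skin labelled WT (limma adjusted p = 1.36e-05). These differed by 0.75 ± 0.16 (limma adjusted p = 0.00381). Skin labelled KO was higher 2.99-fold after MC903 (1.57 ± 0.11, limma adjusted p = 3.08e-06) and 1.77-fold untreated (0.82 ± 0.11, limma adjusted p = 0.00223).

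**Figure D3:**
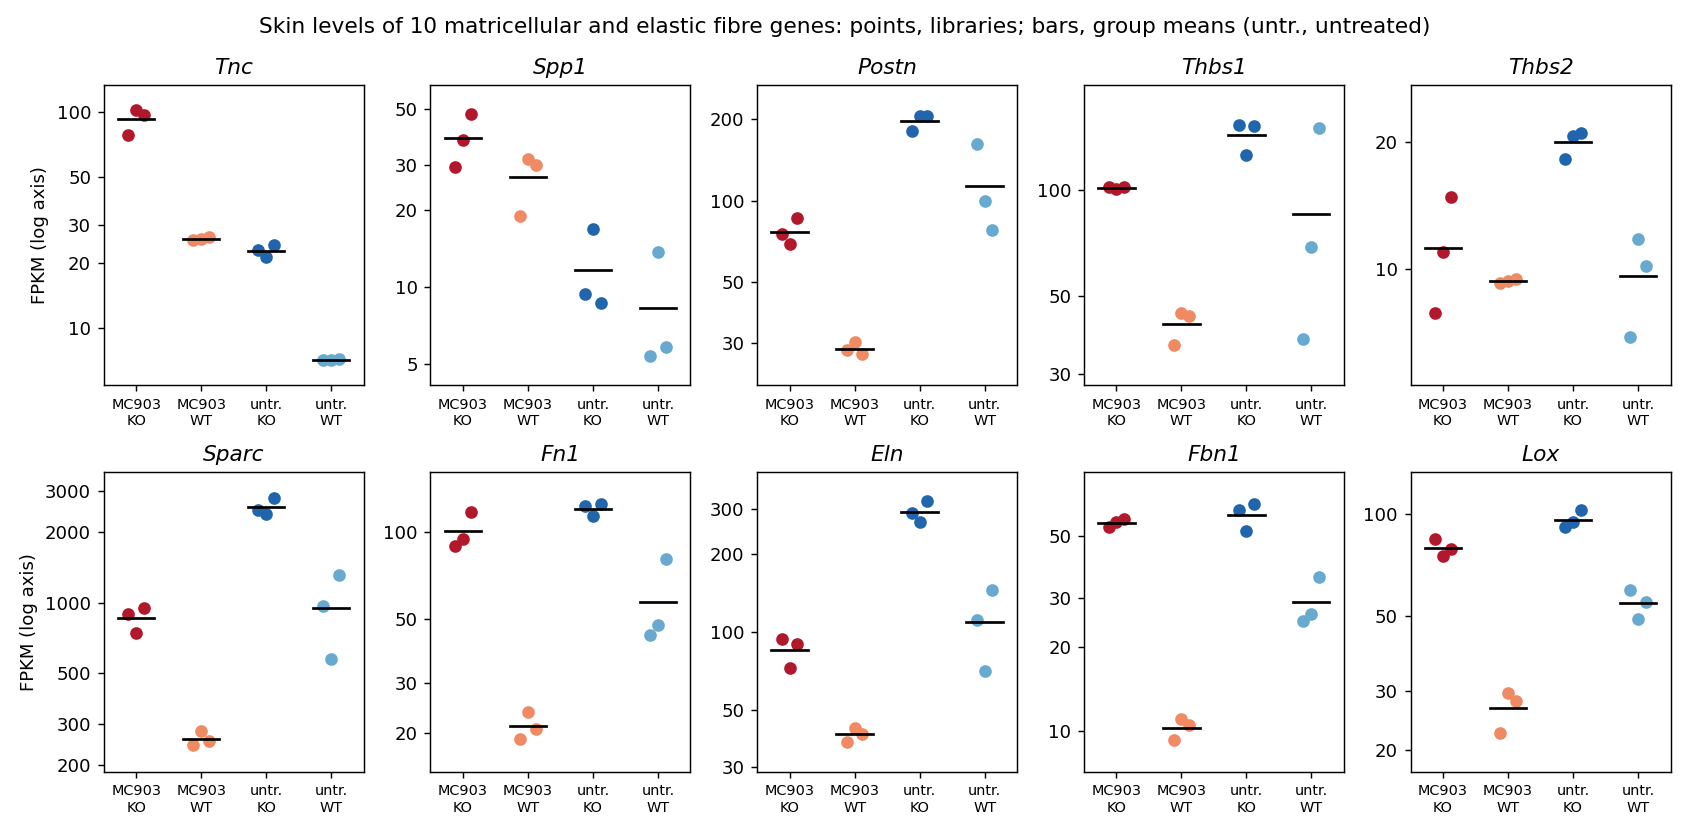
FPKM (log axis) of each gene in the 12 skin libraries, 1 point a library and 1 bar a group mean of 3, with MC903 skin labelled KO, MC903 skin labelled WT, untreated skin labelled KO and untreated skin labelled WT from left to right. Tnc and Spp1 are highest in MC903 skin labelled KO, the other 8 have their highest mean in untreated skin labelled KO, and Thbs1 spreads from 37.8 to 150 FPKM in untreated skin labelled WT.

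The difference of the MC903 response between the labels was called for 4 members, where 39.7% of all genes passed, 20% as higher and 19.7% as lower in skin labelled KO minus skin labelled WT. It was higher for 3 (Fn1, Fbn1 and Lox) and lower for 1 (Thbs2), and the median over the 10 members was 0.27 against -0.01 over all genes. For Tnc, Postn, Thbs1, Sparc, Spp1 and Eln the difference did not pass, with standard errors of 0.13 to 0.51, which does not show that their responses were alike.

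Markers of several cell types had called differences in these comparisons, in which many genes passed. The share of all genes called was 47.9% with MC903 in skin labelled KO and 63% in skin labelled WT. Between labels it was 52.1% in MC903 skin and 11.7% in untreated skin. The summed FPKM of 8 fibroblast markers was 1010 to 1245 in MC903 skin labelled KO, against 400.1 to 451 in MC903 skin labelled WT. Without treatment the sums were 2451 to 2753 in skin labelled KO, against 898.7 to 1546 in skin labelled WT, with none of the 8 listed at 0. Col1a1 carried most of the untreated gap, with means of 1590 FPKM in skin labelled KO and 298 FPKM in skin labelled WT. The other 7 markers summed to 672.3 to 811.9 FPKM in MC903 skin labelled KO, against 308.3 to 359.4 in MC903 skin labelled WT. Their untreated sums of 925.3 to 1026 in skin labelled KO and 732.4 to 1096 in skin labelled WT overlapped. This list holds Col1a1 and Dcn, which are also counted among the matrix genes below. Of the 8, 1 rose and 4 fell with MC903 in skin labelled KO and 6 fell in skin labelled WT, while 7 were higher in MC903 skin labelled KO and 3 in untreated skin labelled KO than in skin labelled WT. Basal keratinocyte markers, 7 in number, summed to 3489 to 4877 FPKM in MC903 skin labelled KO, against 12360 to 17300 in MC903 skin labelled WT. Without treatment the sums were 2012 to 2302 in skin labelled KO, against 1726 to 2019 in skin labelled WT. Krt14 made up most of these sums in MC903 skin, with means of 3427 FPKM in skin labelled KO and 11860 FPKM in skin labelled WT. The other 6 summed to 602.1 to 810.5 FPKM in MC903 and 988.2 to 1153 in untreated skin labelled KO. In skin labelled WT they summed to 2040 to 3089 with MC903 and 979.8 to 1180 untreated. Of the 7, 3 rose and 2 fell with MC903 in skin labelled KO, and 6 rose and 1 fell in skin labelled WT. All 7 were lower in MC903 skin labelled KO than labelled WT, and 0 were called untreated. Macrophage markers, 8 in number and none at 0, summed to 1047 to 1613 FPKM in MC903 skin labelled KO, against 520 to 644.6 in MC903 skin labelled WT. Without treatment the sums were 694.7 to 754.8 in skin labelled KO, against 516.8 to 719.1 in skin labelled WT. Of these 8, 6 rose and 1 fell with MC903 in skin labelled KO, and 3 rose and 3 fell in skin labelled WT. Between labels 7 were higher in MC903 skin labelled KO and 3 in untreated skin labelled KO, with 0 lower in either. Lyz2 was the most abundant of them. The other 7 summed to 259.7 to 279.8 FPKM in untreated skin labelled KO, against 149.2 to 248.1 in untreated skin labelled WT. In MC903 skin they summed to 466.2 to 661 FPKM labelled KO, against 273.7 to 336.1 labelled WT.

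Platelet and megakaryocyte markers, of which 3 of 5 were tested, summed to 246.3 to 281 FPKM in MC903 skin labelled KO, against 74.21 to 100.3 in MC903 skin labelled WT. Without treatment the sums were 111.8 to 123 in skin labelled KO, against 101.2 to 173.2 in skin labelled WT, with Gp1bb at 0 in MC903 skin labelled KO. Pf4 alone averaged 247.5 FPKM in MC903 skin labelled KO and 77.94 FPKM in MC903 skin labelled WT. The other 4 summed to 12.37 to 16.26 FPKM in MC903 and 2.863 to 3.471 in untreated skin labelled KO. In skin labelled WT they summed to 6.01 to 7.571 with MC903 and 3.266 to 5.483 untreated. Of the 3 tested, 3 rose with MC903 in skin labelled KO, and 1 rose and 2 fell in skin labelled WT. All 3 were higher in MC903 skin labelled KO than labelled WT, and 1 was lower in untreated skin labelled KO. Cartilage markers, of which 6 of 7 were tested, summed to 84.7 to 104.6 FPKM in MC903 skin labelled KO, against 27.66 to 29.4 in MC903 skin labelled WT. Without treatment the sums were 213.8 to 245.9 in skin labelled KO, against 138.5 to 223.8 in skin labelled WT, with Matn1 at 0 in both untreated groups. Of 7 immediate early genes, which rise when tissue is handled, 5 were higher in untreated skin labelled KO than labelled WT. The 7 summed to 150.6 to 259.3 FPKM in untreated skin labelled KO, against 69.28 to 96.95 in untreated skin labelled WT. In MC903 skin 1 was higher and 2 were lower in skin labelled KO. The sums there were 204.1 to 249.3 FPKM in skin labelled KO, against 312.2 to 339.8 in skin labelled WT. The response difference was called for 6 of the 7, 1 as higher and 5 as lower, where 39.7% of all genes passed. A part of handling was not tested.

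Other cell type lists also had called markers, to be read beside the same shares of all genes, with no marker at 0 except Ly6g in both untreated groups. All 6 endothelial markers were lower after MC903 in skin labelled WT and higher in MC903 skin labelled KO, where they summed to 63.3 to 85.1 FPKM, than in MC903 skin labelled WT, where they summed to 31.04 to 33.3. Of 6 pericyte and vascular smooth muscle markers, 4 were higher in MC903 skin labelled KO (124 to 164.1 FPKM in sum, against 52.5 to 63.01 in MC903 skin labelled WT). All 5 Schwann cell markers (62.54 to 65.5 FPKM, against 23.18 to 32.85) and 5 of 6 mast cell markers (384.6 to 442.7 FPKM, against 171.2 to 199.5) were likewise higher in MC903 skin labelled KO than in MC903 skin labelled WT. All 6 adipocyte markers were lower in untreated skin labelled KO, with sums of 224.2 to 254.9 FPKM, than in untreated skin labelled WT, with sums of 363.8 to 542.7. All 7 skeletal muscle markers fell with MC903 in skin labelled KO, and 6 were lower in MC903 skin labelled KO (450.3 to 700.4 FPKM) than in MC903 skin labelled WT (1216 to 1850 FPKM). Of 6 suprabasal keratinocyte markers, 4 were lower in MC903 skin labelled KO than labelled WT and 4 were higher in untreated skin labelled KO than labelled WT. All 4 neutrophil markers tested rose with MC903 in both genotypes. Between labels 3 of these 4 were higher in untreated skin labelled KO and 2 in MC903 skin labelled KO, with 0 lower in either. The part of these cell types in the results was not tested, and for fibroblasts the members were rescaled as follows.

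When each library was rescaled so that the mean log2 level of 5 fibroblast markers (Pdgfra, Pdgfrb, Dpt, Twist2 and Thy1) was equal, Tnc still rose with MC903, by 2.16 in skin labelled KO and 2.40 in skin labelled WT, and Spp1 rose by 1.86 in skin labelled KO and 2.34 in skin labelled WT. Tnc, Fn1, Sparc and Fbn1 were still higher in skin labelled KO than in skin labelled WT, by 1.003 (Tnc), 1.40 (Fn1), 0.90 (Sparc) and 1.59 (Fbn1) after MC903 and by 1.24 (Tnc), 0.74 (Fn1), 1.14 (Sparc) and 0.67 (Fbn1) untreated. The 5 markers themselves differed unequally between labels in MC903 skin: Pdgfra 1.52, Pdgfrb 1.42, Dpt 0.51, Thy1 0.41 and Twist2 0.24. The fibroblast markers not used for scaling differed there by 1.46 (Fap), 2.10 (Col1a1) and 1.46 (Dcn). The rescaled values thus depend on the markers chosen, and another choice was not tested. The rescaling ended the MC903 fall of Lox in skin labelled WT (-0.42, limma adjusted p = 0.062) and the untreated label differences of Postn (0.49, limma adjusted p = 0.22) and Lox (0.44, limma adjusted p = 0.10). It ended the MC903-skin label differences of Postn (0.60, limma adjusted p = 0.077), Thbs1 (0.47, limma adjusted p = 0.15) and Eln (0.26, limma adjusted p = 0.21). It also ended the response difference of Lox (0.31, limma adjusted p = 0.37). It gave called values for Thbs2 after MC903 in skin labelled WT (0.59, limma adjusted p = 0.023), for Thbs2 between labels in MC903 skin (-0.58, limma adjusted p = 0.024) and for the response difference of Eln (-0.84, limma adjusted p = 0.021).

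**Figure D4:**
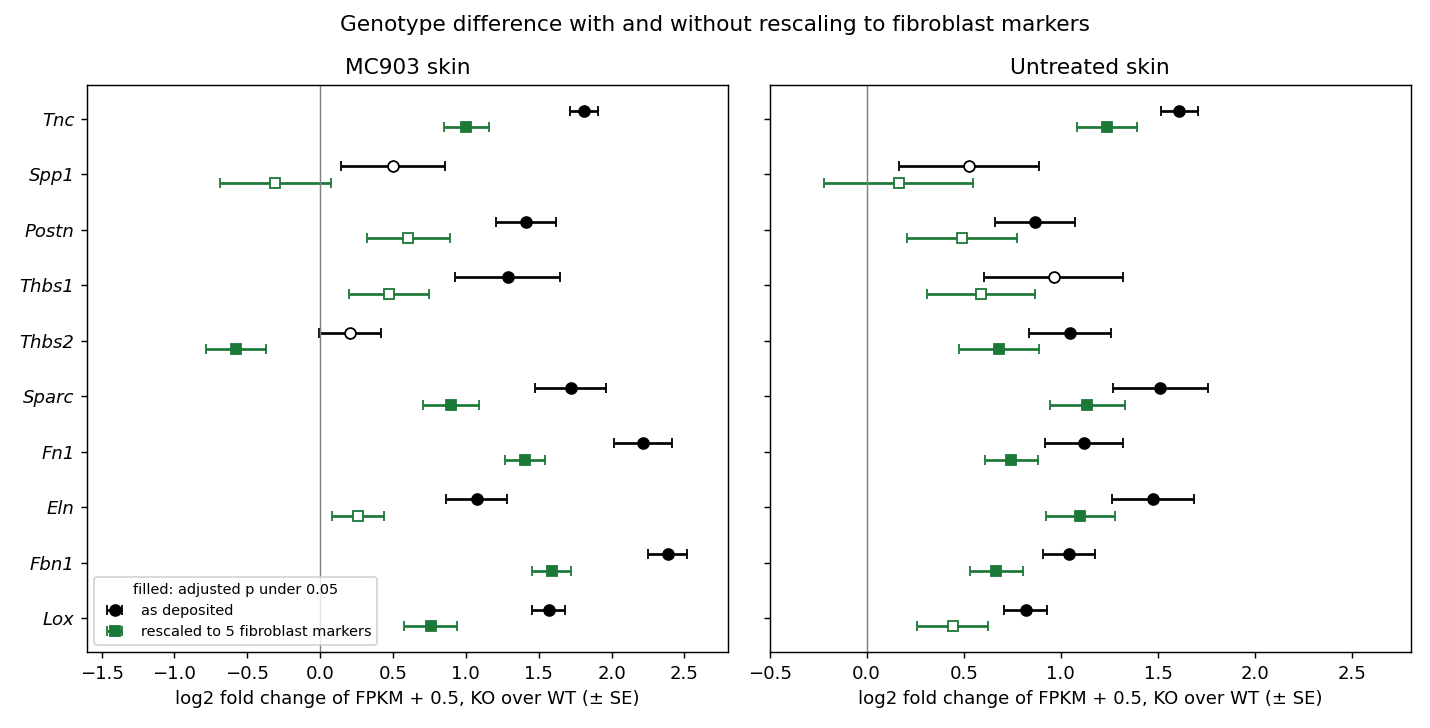
Log2 fold change of FPKM + 0.5 of skin labelled KO over skin labelled WT, with bars of 1 SE, from the deposited values (black circles) and after rescaling to 5 fibroblast markers (green squares), in MC903 skin (left) and untreated skin (right). Filled symbols passed a limma adjusted p of 0.05; all green symbols lie left of their black ones, and those of Tnc, Sparc, Fn1 and Fbn1 are filled and right of 0 in both panels. The green symbol of Thbs2 is also filled in both, left of 0 in MC903 skin (-0.58) and right of 0 in untreated skin (0.68).

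Most genes of the wider matricellular family fell with MC903. Of all genes 23% passed as lower with MC903 in skin labelled KO and 30.3% in skin labelled WT. Between labels 25.9% passed as higher in MC903 skin and 7.15% in untreated skin, and 39.7% had a called response difference. These shares also apply to the elastic fibre genes, collagen chains and proteoglycans below. Of 14 other matricellular genes tested, 1 rose and 10 fell with MC903 in skin labelled KO (median -0.77), and 1 rose and 11 fell in skin labelled WT (median -1.42). The riser in both was Tgfbi, a TGF-beta induced relative of periostin, with a mean of 165 FPKM in MC903 and 93.7 in untreated skin labelled KO (log2 0.81), and 120 FPKM in MC903 and 81.8 in untreated skin labelled WT (0.56). Sparcl1, the closest relative of Sparc, averaged 65.9 FPKM in MC903 and 127 in untreated skin labelled KO, and 27.8 FPKM in MC903 and 140 in untreated skin labelled WT, so that it fell by 0.94 in skin labelled KO and by 2.33 in skin labelled WT on the log2 scale. Ctgf, the CCN family growth factor, had a response of -0.34 in skin labelled KO (not called) and -2.31 in skin labelled WT, a difference of 1.97 (limma adjusted p = 0.00032). Between labels 12 of the 14 were higher in MC903 skin labelled KO and 4 (Cyr61, Wisp1, Thbs3 and Tnxb) in untreated skin labelled KO, with 0 lower in either.

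Of 22 other elastic fibre genes, 1 rose and 13 fell in skin labelled KO with MC903 (median -0.67), and 1 rose and 16 fell in skin labelled WT (median -0.96). Emilin2, an elastin microfibril interface protein, was the one to rise in skin labelled KO (28.7 FPKM with MC903 against 8.94 FPKM untreated on average, log2 1.62), and Fbln1, a fibulin, the one in skin labelled WT (17.98 FPKM with MC903 against 9.39 FPKM untreated on average, 1.01). Loxl4, a relative of Lox, averaged 53.0 FPKM in MC903 and 119 in untreated skin labelled KO, and 10.3 FPKM in MC903 and 103 in untreated skin labelled WT, and it fell by 1.16 in skin labelled KO and by 3.25 in skin labelled WT on the log2 scale. These responses differed by 2.09 (limma adjusted p = 7.4e-05). Loxl2, another lysyl oxidase, was higher in skin labelled KO by 2.34 after MC903 and 1.18 untreated. In all, 16 of the 22 were higher in MC903 skin labelled KO and 9 in untreated skin labelled KO, with 0 lower, and Mfap2, a microfibril glycoprotein, was the one gene with a lower response difference (-1.05) against 7 higher.

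**Figure D5:**
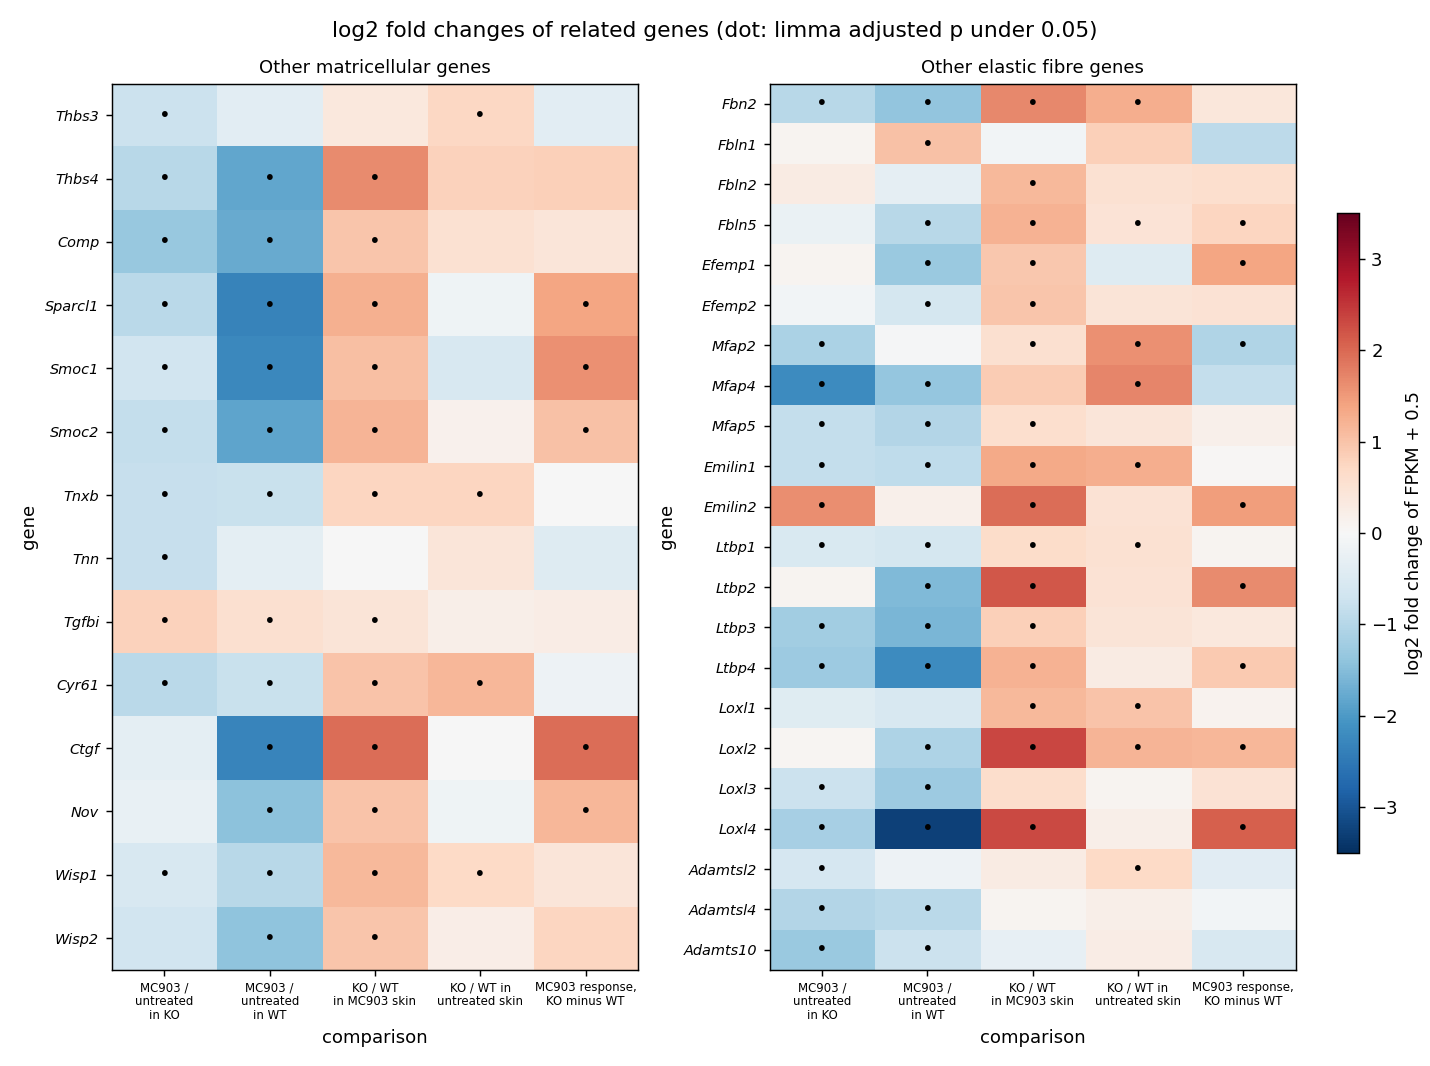
Colours give the log2 fold change of FPKM + 0.5 for 14 other matricellular genes (left) and 22 other elastic fibre genes (right) in 5 comparisons, and dots mark a limma adjusted p under 0.05. The MC903 columns are mostly blue (lower after MC903) with Tgfbi red in both genotypes, and the label columns are mostly red (higher in skin labelled KO).

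Collagen chains and small leucine-rich proteoglycans, 2 neighbouring matrix families, showed separate patterns. Of 12 collagen chains 10 fell and 1 (Col18a1) rose with MC903 in either genotype, all 12 were higher in skin labelled KO in both treatments, and the response differed for 2 (Col6a3 and Col12a1). Of 8 proteoglycans 5 fell in skin labelled KO and 8 in skin labelled WT, 8 were higher in MC903 skin labelled KO and 2 (Lum and Podn) in untreated skin labelled KO, and the response differed for 7. Among the members, Postn, Sparc and Eln had called falls in both genotypes and no called response difference, while Fn1, Fbn1 and Lox had a called one. No test compared the families with each other.

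Over the 12 skin libraries, which fall in 4 groups so that any likeness reflects the groups as well, the levels most like those of each member were listed as a description. Fn1 and Fbn1 were most like each other among members (Pearson r = 0.991), and Lox was like Fbn1 (0.978). The genes most like Tnc were Adamts4 (0.989), Clcn5 (0.987) and Coro1a (0.983), and those most like Spp1 were Fblim1 (0.968), Abhd17b (0.964) and Ramp3 (0.957). Sparc was most like the collagen VI chains Col6a1 (0.994) and Col6a2 (0.994) and like Ppic (0.991), and Eln was most like Pdgfrl (0.993), Cacna1g (0.990) and Cpz (0.989). Postn was most like Scube3 (0.983), Thbs1 was most like Loxl1 (0.952), and Thbs2 was most like Spon2 (0.940).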

How the data were processed

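Poly-A RNA of skin was sequenced in 12 libraries, and the deposited table gives FPKM per gene as the authors computed them. Per the submitters' processing notes, the genome build was mm10 and reads were counted with featureCounts, while the aligner, annotation release and FPKM tool were not given in the sources used here. Multiplied by gene length, the FPKM gave whole reads for 100% of values within 0.01 after 1 factor per library, with 16869716 to 18485698 reads per library, and a single read on 1 kb of gene equalled 0.0496 to 0.0615 FPKM. The factors were 0.917 to 1.115 times the reads, so the deposited values were already scaled between libraries. The 3 dorsal root ganglion samples of the series were not analysed here.

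Genes with an FPKM of at least 0.5 in at least 3 libraries (17646) were fitted with limma 3.58.1 (R 4.3.3) on log2(FPKM + 0.5) over the 4 groups (8 residual degrees of freedom, eBayes with a mean trend). Tests were two-sided, with Benjamini-Hochberg adjusted p-values over all genes within each of 5 comparisons, with a threshold of 0.05. The fit was also run on simulated reads with known changes and the same dispersion for all genes. That run does not show how the fit performs at the spread of these libraries. Alternatives were other pseudocounts, filters and scalings, voom on recovered reads, library weights, robust moderation, the replicate block, fits of the compared groups alone and leaving out each library. Restriction to protein-coding genes of at least 200 bases was chosen after seeing the data.

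All 10 members were named in every comparison. Of each related list up to 4 called genes with the lowest adjusted p in a comparison were eligible, with any gene going against the rest of its list, and 3 genes per member with the highest Pearson r among genes of a mean FPKM of at least 1. Members, lists and rules were chosen with earlier results of these data known. Promoters came from RefSeq on GRCm38.p6 and were used for 6 of the 10 members. Summaries used Python 3.11.15, numpy 2.4.6, pandas 2.3.3 and matplotlib 3.10.9.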

Additional observations from a re-analysis of the deposited data

Results flagged for a closer look

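The MC903 response differed between skin labelled KO and skin labelled WT, by the test of that difference in limma, for 4 of the 10 genes, where 39.7% of all 17646 genes tested passed, so the count is near the share over all genes. Fbn1 differed by 1.34 on the log2 scale (limma adjusted p = 0.000412), with a change of -0.09 in skin labelled KO and -1.43 in skin labelled WT. Fn1 differed by 1.09 (limma adjusted p = 0.0104), with a change of -0.27 in skin labelled KO and -1.36 in skin labelled WT. Lox differed by 0.75 (limma adjusted p = 0.00381), with a change of -0.28 in skin labelled KO and -1.03 in skin labelled WT. Thbs2 differed by -0.84 (limma adjusted p = 0.0451), with a change of -0.84 in skin labelled KO and -0.00 in skin labelled WT. The call of Thbs2 was lost in 12 of 24 alternatives. That of Lox was lost in 1 of 24, the rescaling to fibroblast markers (0.31, limma adjusted p = 0.37). Those of Fbn1 and Fn1 were lost in 0 of 24.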

How the results depend on the processing

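The number of members called was within 1.5 times of the reported one in all settings but 2. It was 5 instead of 8 between the labels in untreated skin when only these groups were fitted, and 2 instead of 4 for the response difference when a 2-fold change was also required. Leaving out 1 library gave 6 to 7 members for MC903 in skin labelled KO, 8 to 9 in skin labelled WT, 8 to 8 between labels in MC903 skin, 7 to 9 in untreated skin and 3 to 5 for the response difference. Signs turned in 11 of 640 values under other settings and in 12 of 600 with a library left out, and apart from Thbs2 after rescaling to fibroblast markers none of these values was called. Rescaling to fibroblast markers turned Thbs2 to 0.59 for MC903 in skin labelled WT and to -0.58 between labels in MC903 skin, Fbn1 to 0.081 for MC903 in skin labelled KO, Spp1 to -0.31 between labels in MC903 skin, and the response differences of Tnc to -0.24, Thbs1 to -0.12 and Sparc to -0.23. Library weights turned Thbs2 to 0.33 for MC903 in skin labelled WT and the response difference of Thbs1 to -0.47. The response difference of Spp1 was 0.24 in TPM and 0.11 by total reads. With a library left out, ranges that crossed 0 were -0.21 to 0.15 for Thbs2 with MC903 in skin labelled WT, -0.0075 to 0.43 for Thbs2 between labels in MC903 skin, and for response differences -0.19 to 0.80 for Thbs1, -0.064 to 0.53 for Sparc and -0.43 to 0.26 for Spp1. The cause of these turns was not tested.

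In TPM the median over all genes shifted by -0.18 for MC903 in skin labelled KO, -0.43 in skin labelled WT, 0.27 between labels in MC903 skin and 0.26 for the response difference, and left 33.5%, 26.7%, 73.7% and 72.2% of calls higher, against 52.1%, 51.8%, 49.8% and 50.3% as deposited. Scaling by total reads left 40.0% higher for MC903 in skin labelled WT, 49.7% against 61.1% between labels in untreated skin, and 61.9% for the response difference, with median shifts of -0.17, -0.04 and 0.12. Fibroblast rescaling moved the medians by 0.13, 0.51, -0.68, -0.31 and -0.37 for MC903 in skin labelled KO, in skin labelled WT, between labels in MC903 and in untreated skin, and for the response difference, and left 65.4%, 80.3%, 9.16%, 10.6% and 15.4% of calls higher. The replicate block left 6, 8, 8, 8 and 4 members called in that order and changed no member's call. Same-numbered libraries did not deviate together (correlations of -0.13 to 0.169), so the numbers were not taken as pairs.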

Other observations

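Receptors and enzymes around these matrix proteins were measured as well. Cd44, a receptor of osteopontin and hyaluronan, averaged 63.2 FPKM in MC903 and 18.6 in untreated skin labelled KO, and 72.1 FPKM in MC903 and 14.8 in untreated skin labelled WT (log2 1.73 and 2.27, both called by limma). Cd47, a receptor of thrombospondin 1, rose by 0.47 in skin labelled KO and fell by 0.39 in skin labelled WT, and these differed by 0.86 (limma adjusted p = 0.00015). Of 15 receptors 5 rose and 3 fell with MC903 in skin labelled KO, 2 rose and 10 fell in skin labelled WT, and 9 were higher and 1 (Itgb6) lower in MC903 skin labelled KO than labelled WT. In untreated skin 3 were higher and 1 (Cd36) lower in skin labelled KO. Of all genes 47.9% passed with MC903 in skin labelled KO and 63% in skin labelled WT. Between labels 52.1% passed in MC903 skin and 11.7% in untreated skin. The 8 of 15 receptors called with MC903 in skin labelled KO are near the 47.9%.

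Of 13 matrix degrading enzymes and inhibitors tested, 6 rose and 2 fell with MC903 in skin labelled KO, and 5 rose and 2 fell in skin labelled WT. The collagenase Mmp13 averaged 99.4 FPKM in MC903 and 0.516 in untreated skin labelled KO, and 63.1 FPKM in MC903 and 0.225 in untreated skin labelled WT. The metalloproteinase inhibitor Timp3 averaged 83.4 FPKM in MC903 and 132 in untreated skin labelled KO, and 13.1 FPKM in MC903 and 152 in untreated skin labelled WT, and its responses differed by 2.82 (limma adjusted p = 3.1e-05). Of 16 TGF-beta and matrix activation genes 12 were higher in MC903 skin labelled KO and 5 in untreated skin labelled KO than in skin labelled WT, with 0 lower, and 5 rose and 4 fell with MC903 in skin labelled KO while 4 rose and 8 fell in skin labelled WT. The counts of both lists stand beside the shares of all genes given for the receptors. The 9 of 16 called with MC903 in skin labelled KO are not far from 47.9%.

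The ratio of Fbn1 to Eln FPKM, chosen after the values were seen and given with no test, was 0.574, 0.772 and 0.644 in MC903 skin labelled KO, 0.250, 0.260 and 0.261 in MC903 skin labelled WT, 0.213, 0.195 and 0.203 in untreated skin labelled KO, and 0.223, 0.372 and 0.246 in untreated skin labelled WT. The libraries of MC903 skin labelled KO stood above all others in this ratio. Lox to Eln and Tnc to Fn1 were the other ratios computed. Lox to Eln was also highest in MC903 skin labelled KO, at 0.901, 1.036 and 0.879. Tnc to Fn1 was not, at 0.880, 1.089 and 0.824 there, against 1.334, 1.082 and 1.274 in MC903 skin labelled WT.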
